A study of Mus musculus with 8 samples.

Results

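The histone genes of the mouse were followed in common lymphoid progenitors (CLP), the bone marrow precursors of B cells, T cells and other lymphocytes. Genes were taken by symbol: those starting with Hist1h to Hist4h, H1f, H2af or H3f3, without pseudogenes. This gave 75 of the 39179 gene IDs listed in each library. They comprised 53 core genes (18 for H2A, 15 for H2B, 7 for H3 and 13 for H4), 10 linker genes for H1, 11 variant genes, and H3f3aos, an antisense RNA of H3f3a that was kept out of the classes.

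The series compared RNA of 4 libraries labelled cCLP with RNA of 4 libraries labelled ex vivo CLP. The cCLP had been cultured for 2 months on OP9, a mouse bone marrow stromal cell line, in medium with Flt3L and a low dose of IL-7, whereas the ex vivo CLP were freshly isolated. Both came from C57BL/6 bone marrow and shared the gate Lin-Flk2+IL7R+CD27+Ly6d-. Total RNA depleted of ribosomal RNA was sequenced, so transcripts were not selected by a poly(A) tail. The labels number the replicates but do not say whether they were separate animals or cultures, and the p-values measure the spread between these samples.

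Core histones H2A, H2B, H3 and H4 form the nucleosome, around which DNA is wound, and linker histone H1 binds the DNA where it enters and leaves. Most core and several linker genes are replication-dependent: they lie in clusters, are transcribed mainly in S phase when new DNA must be packed, and give mRNAs that end in a conserved stem-loop rather than a poly(A) tail. Variant histones such as H2A.Z and H3.3 come from separate genes, usually with polyadenylated mRNAs, and are placed into chromatin outside replication as well. Lymphoid progenitors divide actively, so they use the replication-dependent supply as well as the variants.

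The letters of the stem-loop were more frequent in core and linker genes than in variant genes. The stretch searched for was GGC, any base, CTT, any base, T, any base, AG, any base, GCC, 16 letters in all. Searched on the transcript strand of all annotated transcripts, it was found in 35 of 53 core genes (66.0%), in 4 of 10 linker genes (40.0%) and in 1 of 11 variant genes, H2afx. Among all protein-coding genes, 51 of 21901 held it (0.233%). Some histone genes without the letters have short annotated transcripts, such as Hist1h4k with 312 bases and Hist1h2bl with 381. Bases past the annotated end were not searched, so a gene without the letters here may still have them. The 39 core and linker genes with the letters used 6 forms of them, of which 1 form was shared by 23 genes. The sites of genes measured well enough to be tested are shown because they mark which of these mRNAs could be followed. Bases are given from 5′ to 3′ from the annotated transcripts, and capitals mark the stem-loop.
Hist1h1c: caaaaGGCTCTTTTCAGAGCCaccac
Hist1h2bg: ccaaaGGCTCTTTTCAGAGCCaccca
Hist1h2bj: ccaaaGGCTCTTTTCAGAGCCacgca
Hist3h2a: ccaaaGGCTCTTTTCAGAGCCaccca
Hist1h4d: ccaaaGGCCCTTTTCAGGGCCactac
Hist1h4i: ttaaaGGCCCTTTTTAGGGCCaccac
H2afx: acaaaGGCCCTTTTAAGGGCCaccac
These stretches lie on GRCm38 at chr13:23739507-23739532 (plus strand, Hist1h1c), chr13:23571838-23571863 (plus, Hist1h2bg), chr13:22043633-22043658 (plus, Hist1h2bj), chr11:58955167-58955192 (plus, Hist3h2a), chr13:23581945-23581970 (plus, Hist1h4d), chr13:22040961-22040986 (minus, Hist1h4i) and chr9:44335235-44335260 (plus, H2afx), each in a transcript of its gene. The linker gene Hist1h1c and the H2B genes Hist1h2bg and Hist1h2bj had the same capitals, as had the H2A gene Hist3h2a. Of the 39 core and linker genes with the letters, 19 had an annotated transcript that ran on for at least 100 bases past them. Among the tested ones this held for 5 of 6, all but Hist1h2bj with 23 bases. H2afx, the variant H2A.X that is phosphorylated at DNA breaks, is annotated with 822 bases after its stem-loop.

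Few histone genes were measured well. The deposited value is a whole number on an unnamed scale, and it was divided by a library factor before use (scaled value). A total of 18 genes passed the filter on low values, a scaled value of at least 10 in 4 or more of 8, or 3 or more of 6, libraries: 8 core, 3 linker and 7 variant genes. Another 42 genes, 36 of them core, were listed above 0 in at least 1 library with a deposited value of at most 15. The remaining 15 were listed at 0 in all 8 libraries: 9 core genes, the linker genes H1fnt, H1foo and Hist1h1t, and the variant genes H2afb1, H2afb2 and H2afb3. H1fnt and Hist1h1t are known as testis linker histones, H1foo as the oocyte one, and the H2afb genes as testis variants.

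Histone genes share sequence, which bears on what could be counted. Over all windows of 75 bases, the read length, 28 of the 53 core genes had under 50% found in no other annotated gene, and so had 7 of the 9 core genes listed at 0. Of the 18 tested genes, 3 were under 50%: Hist1h2af with 13.2%, H2afz with 38.3% and Hist1h2bj with 49.6%. The handling of reads that fit several genes is not given in the sources used here, so values of these 3 genes are uncertain. Of the 18, 7 overlap an annotated gene on the opposite strand, H1f0, H2afx and H3f3a among them, and the strand setting of the counting is likewise not given.

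A pair of libraries stood apart from their labels. Over 6486 genes, Spearman's rho between the library labelled cCLP 1 and other libraries was 0.781 to 0.793 within its own label and 0.947 to 0.979 with ex vivo CLP 1, 3 and 4. For the library labelled ex vivo CLP 2 it was 0.738 to 0.801 within its own label and 0.959 to 0.987 with cCLP 2, 3 and 4. Each result is given over all 8 libraries as labelled and over the 6 left without this pair. No library was moved, and the p-values of the second comparison hold only given that choice. Library sums of values ran from 378594 to 704305 and are not depths, and no label names the depth. Of the 4 gate genes, Flt3 and Cd27 were present in all libraries, with deposited values of 171 to 333 and 56 to 113. Il7r had 28, 213, 204 and 256 in cCLP 1 to 4, against 61, 193, 14 and 24 in ex vivo CLP 1 to 4. Ly6d, for which the gate is negative, had 22, 1, 1 and 1 in cCLP 1 to 4, against 28, 0, 28 and 41 in ex vivo CLP 1 to 4.

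Over the 8 libraries no histone gene was called, either higher or lower. In the limma fit over all 6486 genes tested, 0.0% were called at a Benjamini-Hochberg adjusted p below 0.05, and 477 had an unadjusted p below 0.05. None of these 477 was one of the histone genes, and the smallest adjusted p of a histone gene was 0.484. The median log2 fold change (cCLP minus ex vivo CLP, on the log2(scaled value + 1) scale) was 0.18 over the 8 core genes, 0.48 over the 3 linker genes and -0.18 over the 7 variant genes, beside -0.0013 over all genes. The 4 cCLP and the 4 ex vivo CLP libraries overlapped in all 18 genes, where 3.48% of all genes did not overlap.

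Over the 6 libraries, 3 histone genes rose and 3 fell in cCLP. The linker genes H1f0 and Hist1h1c and the H2B gene Hist2h2be were higher, and the variant genes H2afx, H2afz and H3f3b were lower. Hist2h2be was tested only through cCLP, with ex vivo CLP under the filter, so its direction was fixed. This has to be read beside the whole table: of 6573 genes tested, 43.0% were called, 20.8% higher and 22.2% lower. By class, 2 of 3 linker genes and, in Hist2h2be, 1 of 8 core genes rose, and 3 of 7 variant genes fell. The median log2 fold change was 0.45 over core, 0.89 over linker and -0.22 over variant genes, against 0.0052 over all genes. The groups did not overlap in the same 6 genes, beside 55.7% of all genes.

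**Figure D1:**
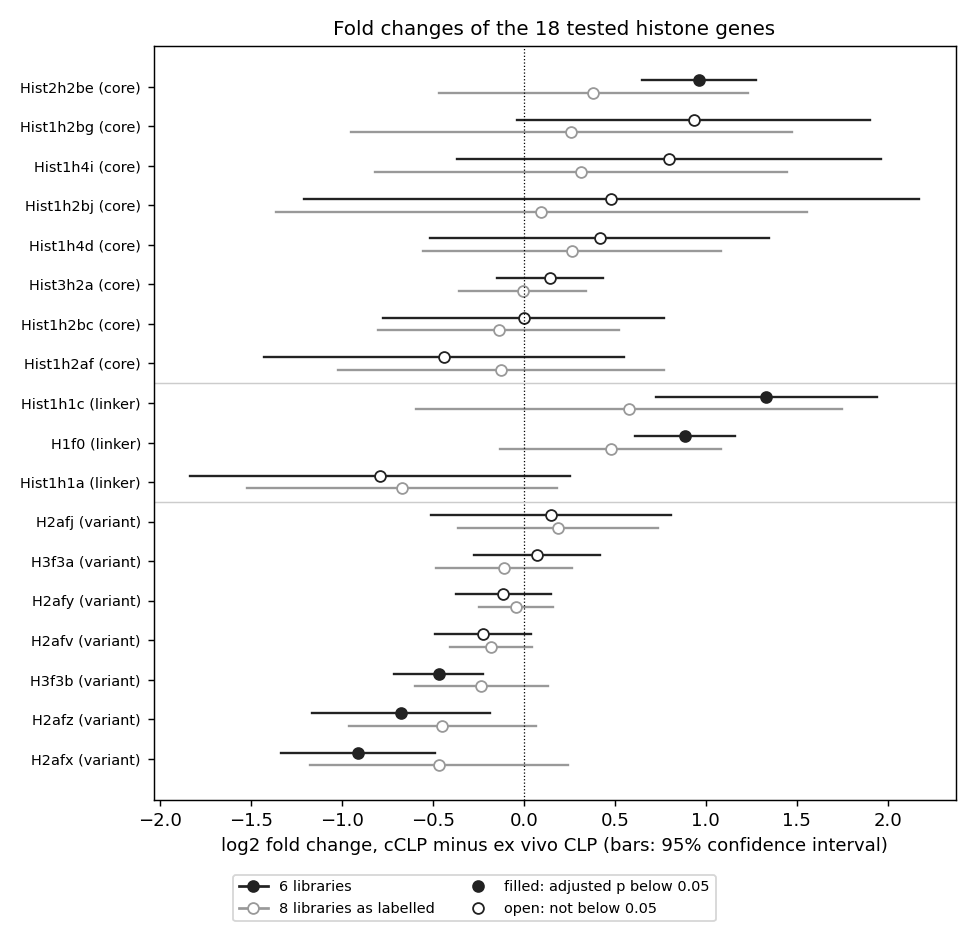
Log2 fold changes of the 18 tested histone genes, cCLP minus ex vivo CLP, on the log2(scaled value + 1) scale, with 95% confidence intervals, over 6 and over 8 libraries. Over 6 libraries Hist1h1c stands at 1.33 and H2afx at -0.91, while over 8 libraries every interval includes 0.

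The linker genes held the highest histone fold change. Hist1h1c, the gene of H1.2, a replication-dependent linker whose mRNA can also be polyadenylated, had scaled values of 34.4, 105.3, 103.7 and 135.0 in cCLP 1 to 4, against 28.2, 112.8, 54.4 and 57.4 in ex vivo CLP 1 to 4. The high values thus stood in cCLP 2, 3 and 4 and in the library labelled ex vivo CLP 2. Over the 6 libraries it averaged 114.7 ± 17.6 in cCLP and 46.7 ± 16.1 in ex vivo CLP (SD, n = 3 each), a log2 fold change of 1.33 ± 0.26 (SE; limma, adjusted p = 0.00483). Over all 8 it averaged 94.6 ± 42.6 in cCLP and 63.2 ± 35.6 in ex vivo CLP (SD, n = 4 each), a log2 fold change of 0.58 ± 0.51 (SE; limma, adjusted p = 0.544).

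H1f0, the gene of H1.0, a linker histone made outside S phase and known to gather in cells that stop dividing, had scaled values of 28.7, 48.4, 63.4 and 51.8 in cCLP 1 to 4, against 30.6, 48.7, 28.4 and 27.6 in ex vivo CLP 1 to 4. The 3 libraries cCLP 2, 3 and 4 were above ex vivo CLP 1, 3 and 4 without overlap. The 6-library means were 54.5 ± 7.85 in cCLP and 28.9 ± 1.57 in ex vivo CLP (SD, n = 3 each), a log2 fold change of 0.89 ± 0.12 (SE; limma, adjusted p = 0.00064). With 8 libraries the log2 fold change was 0.48 ± 0.27 (SE; limma, adjusted p = 0.484).

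Hist1h1a, the gene of H1.1, did not follow the other linker genes. Its scaled values were 10.5, 9.48, 7.69 and 11.9 in cCLP 1 to 4, against 7.36, 13.3, 27.2 and 24.7 in ex vivo CLP 1 to 4. Ex vivo CLP 1 lay below every cCLP library, ex vivo CLP 3 and 4 lay above them, and the groups overlapped. The log2 fold change over the 6 libraries was -0.79 ± 0.44 (SE) and was not called (limma, adjusted p = 0.194). Without ex vivo CLP 1 the gene was called lower, with a log2 fold change of -1.35 and an adjusted p of 0.00048. The ratio of Hist1h1a to Hist1h1c, taken within each library, was 0.306, 0.09, 0.0741 and 0.0881 in cCLP 1 to 4, against 0.261, 0.118, 0.5 and 0.43 in ex vivo CLP 1 to 4. Hist1h1e, the gene of H1.4, and Hist1h1b, the gene of H1.5, were not tested, with scaled values of 4.78 to 9.48 in cCLP against 4.9 to 11.1 in ex vivo CLP for Hist1h1e, and of 1.7 to 3.16 in cCLP against 3.32 to 8.72 in ex vivo CLP for Hist1h1b. The deposited Hist1h1b values were 2 or 3 in cCLP and 3 to 12 in ex vivo CLP and met at 3.

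Among the variants, H2afx had scaled values of 115.7, 54.8, 74.9 and 63.7 in cCLP 1 to 4, against 94.4, 63.0, 124.9 and 150.4 in ex vivo CLP 1 to 4. The lowest values belonged to cCLP 2, 3 and 4 and ex vivo CLP 2. Over these 6 libraries it averaged 64.5 ± 10.1 in cCLP and 123.2 ± 28.1 in ex vivo CLP (SD, n = 3 each), a log2 fold change of -0.91 ± 0.18 (SE; limma, adjusted p = 0.00496). The 8-library log2 fold change was -0.47 ± 0.31 (SE; limma, adjusted p = 0.484). It is the only variant gene with the stem-loop letters.

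H3.3, the H3 variant placed at active genes and elsewhere outside replication, is encoded by H3f3a and H3f3b, which give the same protein. H3f3b had scaled values of 641.8, 493.8, 503.4 and 492.4 in cCLP 1 to 4, against 675.5, 464.4, 663.8 and 721.6 in ex vivo CLP 1 to 4. Within each label the members of the left-out pair lay far from the other 3 libraries. Over 6 libraries the means were 496.5 ± 5.96 in cCLP and 687.0 ± 30.5 in ex vivo CLP (SD, n = 3 each), a log2 fold change of -0.47 ± 0.11 (SE; limma, adjusted p = 0.00912), and over 8 the log2 fold change was -0.23 ± 0.16 (SE; limma, adjusted p = 0.488). H3f3a had scaled values of 486.8, 515.9, 604.2 and 658.0 in cCLP 1 to 4, against 508.8, 770.7, 658.9 and 523.2 in ex vivo CLP 1 to 4, and its groups overlapped. Its 6-library log2 fold change was 0.08, with a 95% interval of -0.27 to 0.42 (limma, adjusted p = 0.714). The ratio of H3f3b to H3f3a within a library was 1.32, 0.957, 0.833 and 0.748 in cCLP 1 to 4, against 1.33, 0.603, 1.01 and 1.38 in ex vivo CLP 1 to 4. This difference between the paralogs was not tested. Pseudogene H3f3a-ps2, which is no member, was listed at 13 to 21 in cCLP against 12 to 16 in ex vivo CLP.

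H2A.Z, a variant found at promoters, is encoded by H2afz and H2afv. H2afz had scaled values of 297.5, 171.6, 245.0 and 214.8 in cCLP 1 to 4, against 253.8, 252.1, 436.4 and 332.8 in ex vivo CLP 1 to 4. Ex vivo CLP 1 stood only just above cCLP 3. Scaled values over the 6 libraries averaged 210.5 ± 36.9 in cCLP and 341.0 ± 91.6 in ex vivo CLP (SD, n = 3 each), a log2 fold change of -0.67 ± 0.21 (SE; limma, adjusted p = 0.033). This call was lost without ex vivo CLP 3 (log2 fold change -0.48, adjusted p = 0.0763), ex vivo CLP 4 (-0.67, adjusted p = 0.0796), cCLP 2 (-0.54, adjusted p = 0.112) or cCLP 4 (-0.70, adjusted p = 0.0837). H2afv, all of whose windows are found in no other gene, ran from 81.1 to 96.6 in cCLP against 90.7 to 111.3 in ex vivo CLP in scaled value. Its 6-library log2 fold change was -0.22 ± 0.11 (SE) and was not called (limma, adjusted p = 0.152), but without ex vivo CLP 1 it was called at -0.32 (adjusted p = 0.0394).

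The other variants were not called. H2afy, which encodes macroH2A1, an H2A with a large extra domain that is often linked to silent chromatin, had scaled values of 679.1, 583.3, 655.1 and 611.3 in cCLP 1 to 4, against 696.3, 599.3, 632.9 and 670.7 in ex vivo CLP 1 to 4. The 6-library log2 fold change was -0.11, with a 95% interval of -0.37 to 0.15 (limma, adjusted p = 0.454). H2afj, an H2A variant linked in human and mouse cells to senescence, had scaled values of 24.9, 21.1, 31.7 and 21.2 in cCLP 1 to 4, against 13.5, 19.9, 26.0 and 29.1 in ex vivo CLP 1 to 4. Its 6-library log2 fold change was 0.15, with a 95% interval of -0.51 to 0.81 (limma, adjusted p = 0.699). In both genes the groups overlapped. H2afy2, the macroH2A2 gene, did not reach the filter and had a deposited value of at most 5.

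**Figure D2:**
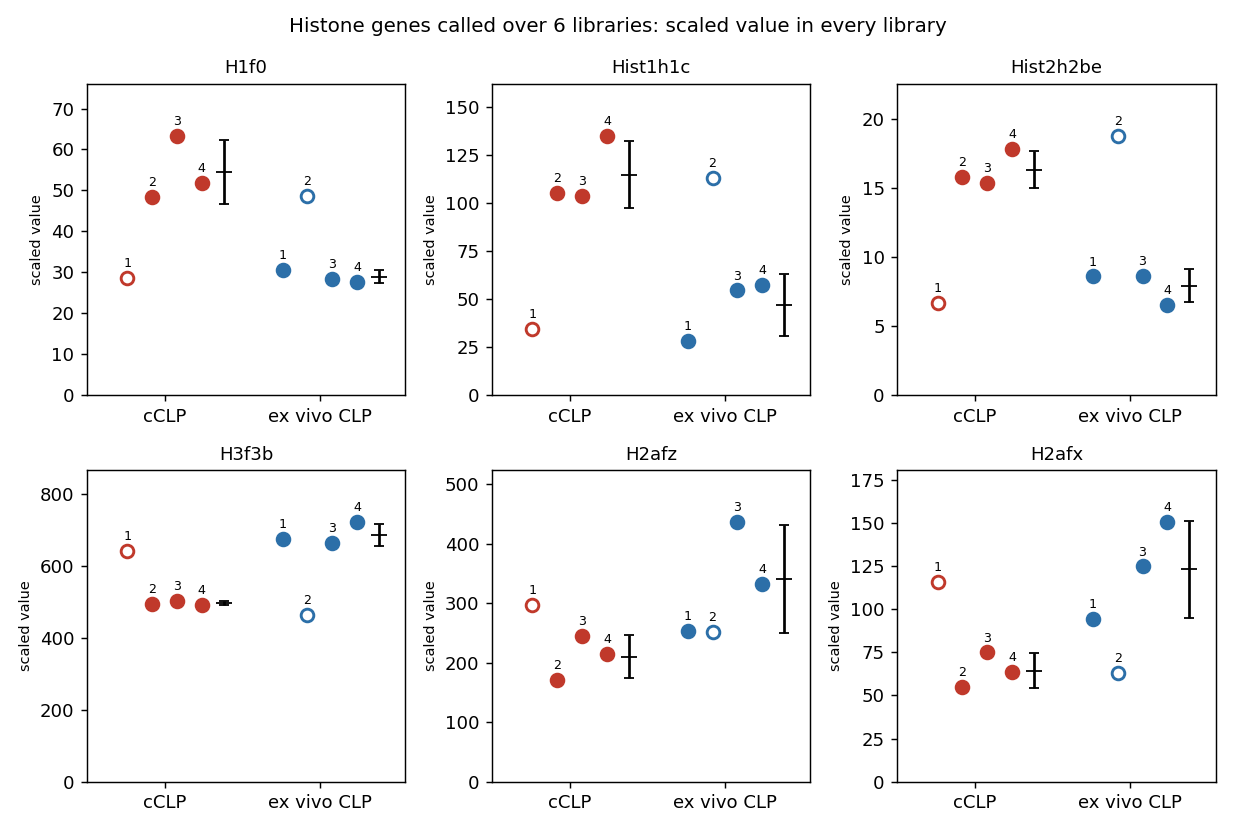
Scaled values of the 6 histone genes called over 6 libraries, with cCLP on the left and ex vivo CLP on the right of each panel; numbers are replicates, open circles are the libraries labelled cCLP 1 and ex vivo CLP 2, and bars are the mean and SD of the filled circles (n = 3). In Hist1h1c the filled cCLP circles lie at 103.7 or above and the filled ex vivo CLP circles at 57.4 or below, while the open circles lie with the other label.

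Hist2h2be was the only core gene called. It is a gene for H2B that is known to be expressed outside S phase too, from a longer polyadenylated mRNA, and its annotated transcripts lack the stem-loop letters. Scaled values were 6.7, 15.8, 15.4 and 17.8 in cCLP 1 to 4, against 8.58, 18.8, 8.65 and 6.54 in ex vivo CLP 1 to 4. The 6-library means were 16.3 ± 1.31 in cCLP and 7.93 ± 1.2 in ex vivo CLP (SD, n = 3 each), a log2 fold change of 0.96 ± 0.14 (SE; limma, adjusted p = 0.000855). All 3 ex vivo CLP libraries lay under the filter of 10, so the gene was tested only because cCLP passed, and the direction was fixed by that. Over 8 libraries the log2 fold change was 0.38 ± 0.37 (SE; limma, adjusted p = 0.572).

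The other 7 tested core genes were not called. The H2B genes differed among themselves. Hist1h2bg had scaled values of 12.4, 23.2, 29.8 and 47.5 in cCLP 1 to 4, against 8.58, 44.2, 27.2 and 18.2 in ex vivo CLP 1 to 4, with a 6-library log2 fold change of 0.93 ± 0.41 (SE; limma, adjusted p = 0.109). Hist1h2bc had 45.9, 42.1, 63.4 and 59.4 in cCLP 1 to 4, against 31.9, 67.5, 86.5 and 57.4 in ex vivo CLP 1 to 4. Its 6-library log2 fold change of -0.00079 had a 95% interval of -0.77 to 0.77, which leaves room for changes in either direction. Hist1h2bj had 4.78, 8.42, 11.5 and 11.04 in cCLP 1 to 4, against 1.23, 11.1, 14.8 and 13.8 in ex vivo CLP 1 to 4. It had a 6-library log2 fold change of 0.48, which was -0.45 and called without ex vivo CLP 1 (adjusted p = 0.0408).

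For H4, Hist1h4i had scaled values of 18.2, 27.4, 47.1 and 39.9 in cCLP 1 to 4, against 8.58, 40.9, 35.8 and 29.1 in ex vivo CLP 1 to 4, and a 6-library log2 fold change of 0.80 ± 0.49 (SE; limma, adjusted p = 0.237). Without ex vivo CLP 1 that log2 fold change was 0.20 (adjusted p = 0.506). Hist1h4d had 9.56, 8.42, 11.5 and 14.4 in cCLP 1 to 4, against 3.68, 11.1, 13.6 and 10.2 in ex vivo CLP 1 to 4, and a 6-library log2 fold change of 0.42. In both, ex vivo CLP 1 was the lowest library of all. For H2A, Hist1h2af had 82.3, 37.9, 77.8 and 58.6 in cCLP 1 to 4, against 39.2, 46.4, 111.3 and 99.5 in ex vivo CLP 1 to 4. Its 6-library log2 fold change of -0.44 was not called, but without ex vivo CLP 1 it was -0.90 and called (adjusted p = 0.036). Hist3h2a had 8.61, 10.5, 11.5 and 13.6 in cCLP 1 to 4, against 11.03, 12.2, 9.89 and 10.9 in ex vivo CLP 1 to 4, and a 6-library log2 fold change of 0.14, with a 95% interval of -0.15 to 0.44. No H3 core gene passed the filter, and the highest scaled value in that family was 11.1 (Hist1h3a, ex vivo CLP 3).

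The core sums overlapped between the groups and were lowest in ex vivo CLP 1. Summed scaled values of the 53 core genes were 264.9, 250.6, 358.3 and 342.1 in cCLP 1 to 4, against 149.6, 341.7, 430.2 and 366.2 in ex vivo CLP 1 to 4. Ex vivo CLP 1 lay below all others and ex vivo CLP 3 above them, with ex vivo CLP 4 above every cCLP library too. In the 6 libraries the core sum averaged 317.0 ± 58.1 in cCLP and 315.3 ± 147.1 in ex vivo CLP (SD, n = 3 each), closer than the spread. All 4 families had their lowest sum in ex vivo CLP 1. For H4 the sums were 51.6, 61.1, 81.6 and 80.7 in cCLP 1 to 4, against 19.6, 77.4, 79.1 and 71.2 in ex vivo CLP 1 to 4. For H3 they were 12.4, 15.8, 19.2 and 15.3 in cCLP 1 to 4, against 4.9, 17.7, 27.2 and 24.7 in ex vivo CLP 1 to 4. Of the 8 tested core genes 5 had their lowest scaled value in ex vivo CLP 1, as had 2 of the 3 linker genes and 1 of the 7 variant genes, where 11.5% of all 6486 genes had theirs there.

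**Figure D3:**
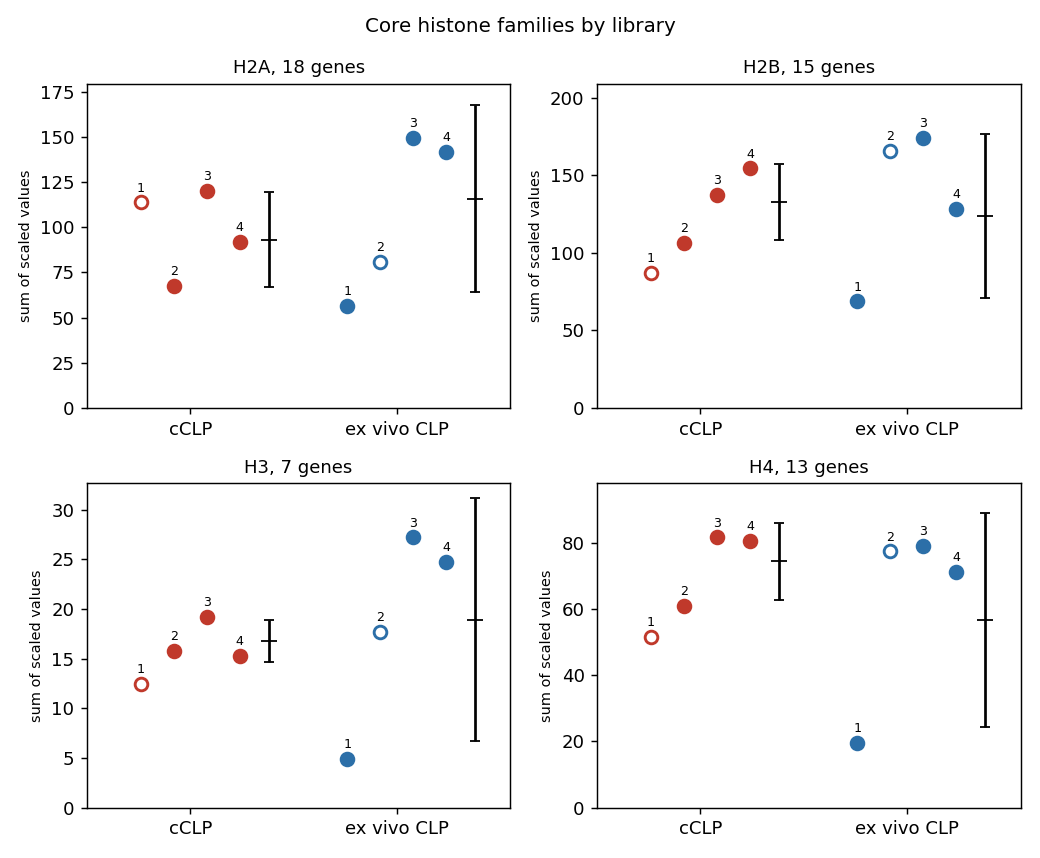
Summed scaled values of all H2A, H2B, H3 and H4 core genes in each library, cCLP left and ex vivo CLP right; numbers are replicates, open circles are the libraries labelled cCLP 1 and ex vivo CLP 2, and bars are the mean and SD of the filled circles (n = 3). Ex vivo CLP 1 is the lowest point in every panel, at 19.6 for H4 and 4.9 for H3.

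The linker and variant sums followed other orders of libraries, though the linker sum was also lowest in ex vivo CLP 1. The 10 linker genes summed to scaled values of 86.1, 179.0, 189.2 and 212.2 in cCLP 1 to 4, against 77.2, 191.3, 134.7 and 136.6 in ex vivo CLP 1 to 4. With the pair left out the sums averaged 193.5 ± 17.0 in cCLP and 116.2 ± 33.8 in ex vivo CLP (SD, n = 3 each). Ex vivo CLP 1 lowered that ex vivo CLP mean, while ex vivo CLP 3 and 4 also lay under cCLP 2, 3 and 4. In each cCLP library Hist1h1c held the largest part of the linker sum. Of the 3 tested linker genes, Hist1h1c and H1f0 averaged higher in cCLP over these 6 libraries. Hist1h1a averaged lower, at 9.68 ± 2.11 in cCLP and 19.75 ± 10.81 in ex vivo CLP (SD, n = 3 each). The 11 variant genes summed to 2347, 1922, 2206 and 2155 in cCLP 1 to 4, against 2338, 2269, 2657 and 2541 in ex vivo CLP 1 to 4, with 6-library means of 2094 ± 151.4 in cCLP and 2512 ± 161.4 in ex vivo CLP (SD, n = 3 each). As shares of the library sum, the 6-library means were 0.0641 ± 0.00827% in cCLP and 0.061 ± 0.0252% in ex vivo CLP for core, 0.0393 ± 0.00199% in cCLP and 0.0227 ± 0.00534% in ex vivo CLP for linker, and 0.425 ± 0.00896% in cCLP and 0.496 ± 0.00727% in ex vivo CLP for variant genes (SD, n = 3 each). The 8-library linker means were 166.6 ± 55.5 in cCLP and 135.0 ± 46.6 in ex vivo CLP, and the variant means 2157 ± 177 in cCLP and 2451 ± 179.1 in ex vivo CLP (SD, n = 4 each). Class sums carry no test.

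**Figure D4:**
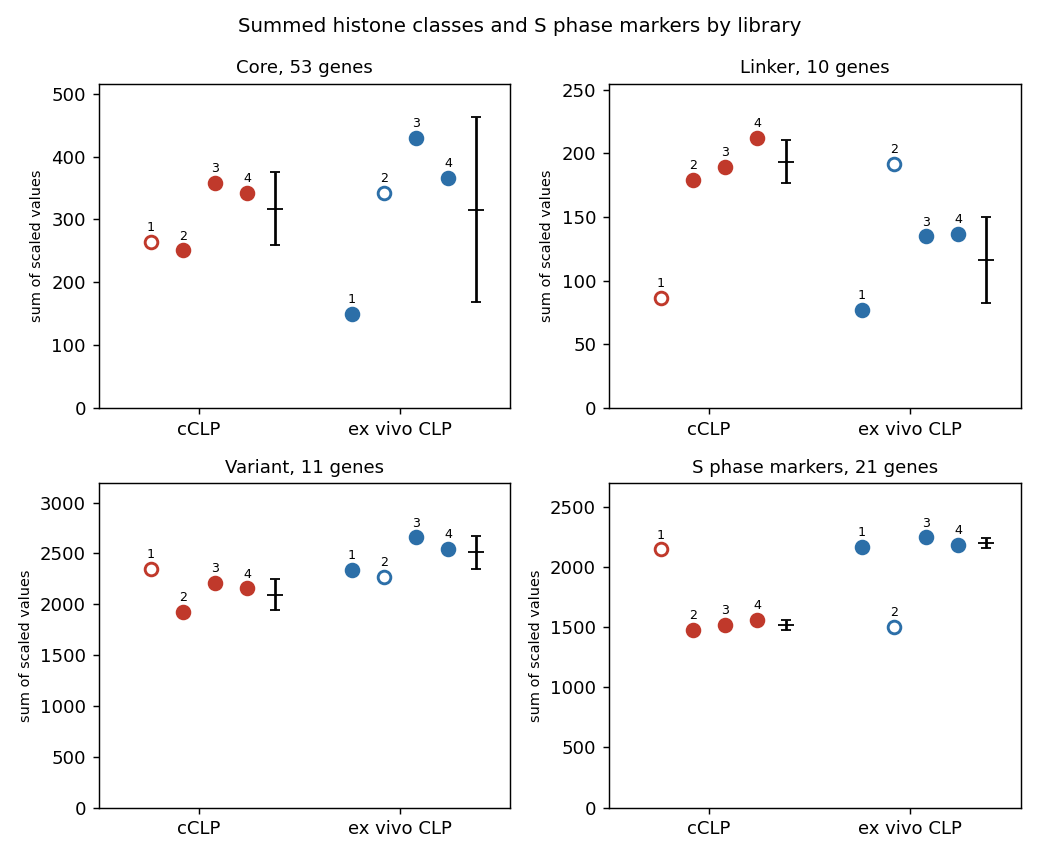
Summed values of the core, linker and variant classes in each library, cCLP left and ex vivo CLP right; numbers are replicates, open circles are the libraries labelled cCLP 1 and ex vivo CLP 2, and bars are the mean and SD of the filled circles (n = 3). The filled linker sums are higher in cCLP, the filled variant sums lower in cCLP, and the core sums overlap.

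Most S phase markers fell in cCLP over the 6 libraries, whereas the core histone sums overlapped between the groups, through ex vivo CLP 1 alone. Over the 6 libraries 15 of 20 tested S phase genes fell in cCLP and 0 rose, with a median log2 fold change of -0.55, and 7 of 12 genes of the G2 and M phases fell, beside 22.2% of all genes that fell. The 21 S phase genes summed to scaled values of 2146, 1478, 1516 and 1562 in cCLP 1 to 4, against 2169, 1503, 2245 and 2181 in ex vivo CLP 1 to 4. Ex vivo CLP 1 thus had an S phase sum like that of ex vivo CLP 3 and 4 but the lowest core histone sum. Without it, the core sums did not overlap. They reached 358.3 in cCLP 2, 3 and 4, against 430.2 and 366.2 in ex vivo CLP 3 and 4. The part of S phase content in the histone values was not tested. In these bulk samples, fewer cells of a type and less RNA per cell cannot be told apart.

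Markers of other cells moved as well. All 12 granulocyte and monocyte genes fell over the 6 libraries, but 11 of them, all but Mpo, lay under the filter of 10 in cCLP 2, 3 and 4, so they were tested only because ex vivo CLP passed and their direction was fixed by that. Their summed scaled values were 1711, 265.3, 283.4 and 297.1 in cCLP 1 to 4, against 1427, 167.0, 3179 and 3029 in ex vivo CLP 1 to 4. Elane, which defines granulocyte precursors, was listed at 0 in cCLP 2, 3 and 4. The gate marker Il7r rose (limma, adjusted p = 0.00456) and Ly6d fell (limma, adjusted p = 4.9e-07), a direction likewise fixed by the filter, with deposited Ly6d values of 22, 1, 1 and 1 in cCLP 1 to 4, against 28, 0, 28 and 41 in ex vivo CLP 1 to 4. The 8 erythroid genes summed to 4.25 to 13.4 in cCLP, against 3.32 to 43.3 in ex vivo CLP, with no gene tested. The 8 B cell genes summed to 15.4 to 35.4 in cCLP, against 34.9 to 48.7 in ex vivo CLP, with 1 gene tested, Cd79b, which fell and was under the filter of 10 in cCLP 2, 3 and 4. Among the B cell genes not tested, Cd79a averaged 9.23 ± 3.79 in cCLP and 1.06 ± 0.291 in ex vivo CLP, and Ebf1 6.92 ± 1.01 in cCLP and 0.409 ± 0.708 in ex vivo CLP, in scaled value over the 6 libraries (SD, n = 3 each). The 8 T cell genes summed to 9.48 to 44.9 in cCLP, against 15.5 to 47.0 in ex vivo CLP, with 2 genes tested, Lat and Cd7, both of which fell, Cd7 being under the filter in cCLP 2, 3 and 4. The part of these cells in the histone values was not tested. Of 12 stromal markers, 8 were listed at 0 in all libraries, Col1a1 and Sparc among them, and the summed value was 11.5 to 21.1 in cCLP against 8.65 to 14.7 in ex vivo CLP.

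The factors that handle histones were followed as lists. Over the 8 libraries 0 genes were called in any of the 7 lists. Over the 6 libraries, the list with most calls was that of the chaperones that bring new H3-H4 to replicating DNA: 6 of 9 tested genes fell and 0 rose, with a median log2 fold change of -0.51, beside 22.2% of all genes that fell and 20.8% that rose. Chaf1b, a subunit of chromatin assembly factor 1, averaged 11.6 ± 1.0 in cCLP and 24.2 ± 0.656 in ex vivo CLP in scaled value (SD, n = 3 each), a log2 fold change of -1.001 (limma, adjusted p = 0.00013). Asf1b, an H3-H4 chaperone of dividing cells, averaged 17.9 ± 1.9 in cCLP and 31.3 ± 4.81 in ex vivo CLP (SD, n = 3 each), a log2 fold change of -0.77 (limma, adjusted p = 0.00292). For H3.3 loading outside replication (Hira, Ubn1, Daxx, Atrx and partners) 0 of 5 tested genes were called, with a median log2 fold change of -0.09. For H2A-H2B chaperones and the FACT complex 0 of 6 were called, with a median of 0.11.

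For the machinery that trims and degrades histone mRNA, 2 of 13 tested genes rose and 3 fell, with a median log2 fold change of -0.12. This share of calls was no higher than the 43.0% of all genes called, and the genes are given as values. Lsm10, a part of the U7 particle that directs cleavage after the stem-loop, had a log2 fold change of 0.58 (limma, adjusted p = 0.0153), and the cleavage enzyme gene Cpsf3 one of 0.31 (limma, adjusted p = 0.0301). Eri1, whose product trims the stem-loop end, had a log2 fold change of -0.57 (limma, adjusted p = 0.00251), and Dis3, an exosome nuclease gene, one of -0.54 (limma, adjusted p = 0.00425). Slbp, whose product binds the stem-loop, was not called at -0.30 (limma, adjusted p = 0.0647).

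For the exchange of H2A.Z, 1 of 9 tested genes rose and 1 fell, with a median log2 fold change of -0.07, a smaller share than the 43.0% of all genes called. Vps72, an H2A.Z-binding subunit of exchange complexes, had a log2 fold change of 0.34 (limma, adjusted p = 0.0404), and Znhit1, another subunit, one of -0.71 (limma, adjusted p = 0.0075), with cCLP 2, 3 and 4 under the filter, which fixed its direction. Of the linker chaperones, Ptma, the gene of prothymosin alpha, fell by 0.55 on the log2 scale (limma, adjusted p = 0.033) and Set was not called at 0.20 (limma, adjusted p = 0.158). Of 5 tested genes for centromeric H3 and its loading, 2 fell and 0 rose, with a median of -0.28, near the 43.0% of all genes called: Hjurp, the chaperone of CENP-A, had a log2 fold change of -0.69 (limma, adjusted p = 0.00121) and Mis18a one of -0.51 (limma, adjusted p = 0.0156).

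The promoters of 4 of the called genes, a pair of linker genes that rose and a pair of variant genes that fell over the 6 libraries, are shown to set them side by side. H2afx and Hist2h2be, also called, are not among the matched genes. RefSeq sequences on GRCm38.p6 were matched for 68 of the 75 genes. The 150 bases before the start are given on the gene's strand, with capitals marking matches, on either strand, to the CCAAT box (CCAAT), the TATA box (TATAAA) and the octamer (ATTTGCAT).
Hist1h1c: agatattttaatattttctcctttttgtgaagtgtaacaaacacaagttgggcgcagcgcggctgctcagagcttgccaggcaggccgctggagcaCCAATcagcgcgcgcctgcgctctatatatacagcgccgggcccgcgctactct
H1f0: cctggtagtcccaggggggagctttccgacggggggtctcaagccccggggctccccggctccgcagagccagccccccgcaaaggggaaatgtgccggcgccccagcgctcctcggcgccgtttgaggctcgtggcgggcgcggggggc
H2afz: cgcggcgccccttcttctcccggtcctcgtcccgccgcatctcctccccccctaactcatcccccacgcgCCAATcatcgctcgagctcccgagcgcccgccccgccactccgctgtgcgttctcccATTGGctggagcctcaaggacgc
H3f3b: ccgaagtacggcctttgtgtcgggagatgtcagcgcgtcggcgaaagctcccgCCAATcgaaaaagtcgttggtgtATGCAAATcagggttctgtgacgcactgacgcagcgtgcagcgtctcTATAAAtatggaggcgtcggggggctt
They span chr13:23738657-23738806 (plus strand, Hist1h1c), chr15:79028062-79028211 (plus, H1f0), chr3:137864337-137864486 (plus, H2afz) and chr11:116024505-116024654 (minus, H3f3b). The annotated H1f0 gene used for its values starts at 79028450, so the bases just before that start were not searched. In the 250 bases searched, CCAAT was found once for Hist1h1c, 2 times for H2afz and 4 times for H3f3b, and not for H1f0. It was in 77.6% of 49 core promoters, in 6 of 9 linker and 8 of 10 variant promoters, against 33.9% of all 32851 promoters. The core families differed: 18 of 18 H2A, 13 of 13 H2B, 4 of 6 H3 and 3 of 12 H4 promoters held it. TATAAA was in 44.9% of core promoters, in 3 of 9 linker promoters and in H3f3b alone of 10 variant ones, against 12.4% of all. ATTTGCAT was in 22.4% of core promoters, against 1.6% of all, and in H3f3b alone of the variant ones. Within core it was in 7 of 18 H2A and 4 of 13 H2B promoters, and in no H3 or H4 promoter. TTTNGCGC, an E2F-type motif, was in 20.4% of core promoters, against 1.13% of all. These were 4 of 18 H2A and 6 of 13 H2B promoters, and no H3 or H4 promoter. AAACACAAA, the H1 box, was in 1 of 9 linker promoters (Hist1h1t), 1 of 10 variant and 1 of 49 core promoters, against 0.642% of all. The search needed every letter of a motif. Some H2A and H2B genes lie head to head and share searched bases, such as Hist1h2ae and Hist1h2bg. There a single site counted for both genes, which raises the core percentages. The Hist1h1c stretch holds aaacacaag, which differs from the H1 box in its last letter and was not counted. The marked matches do not overlap with each other in the 4 stretches shown.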

How the data were processed

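Values were read from 8 deposited tables, 1 per library, each with an Ensembl gene ID and a whole number. Per the submitters' processing notes, TopHat2, Bowtie2, HTSeq 1.0.6 and the GRCm38 (mm10) genome were used; roles, strand setting, annotation release and later scaling are not given in the sources used here. The deposited value is a score and not a count: variance relative to a Poisson count was 0.264 over 6573 genes between cCLP 3 and 4 (simulated counts gave 0.98) and 0.467 over 6633 genes between ex vivo CLP 3 and 4 (simulated counts gave 1.004). Count models were therefore not used. Depth is unknown and no counting interval can be given. No column was left unmapped, and 0 pairs of libraries were identical.

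Symbols and positions came from GENCODE vM21, which matched 37693 IDs. From the symbol matches 7 pseudogenes were left out. Another 8 annotated symbols were not among the listed gene IDs and have no value here. Class sizes and sums cover the listed genes only. Members, classes and gene lists were chosen with earlier results of these data known, as was the choice of the 2 libraries left out.

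Values were divided by trimmed mean factors (30% of ratios and 5% of levels trimmed). Genes with a scaled value of at least 10 in 4 or more of 8, or 3 or more of 6, libraries were fitted as log2(scaled value + 1) with limma 3.58.1 in R 4.3.3, with trend and robust moderation. Tests were two-sided, with Benjamini-Hochberg adjustment over all genes tested and a threshold of 0.05; a fold change on this scale understates changes of low genes. The script was tested on simulated data. Every tested member is named, and at most 2 genes in each direction per list, by absolute log2 fold change. Unique windows, stem-loops and motifs were found by exact letters in GENCODE transcripts and RefSeq promoters, in Python 3.11.15 (pandas 2.3.3, NumPy 2.4.6). Alternatives were other scalings, pseudocounts and filters, no moderation by trend, protein-coding genes only, a replicate block and leaving out each library.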

Additional observations from a re-analysis of the deposited data

Results flagged for a closer look

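Within each label's 4 libraries, the histone genes and class shares were searched for a library far from the others by Dixon's test. Of 42 groups examined, 3 held such a library, where chance gives about 1 in 20. The scaled value of H1f0 was 48.7 in the library labelled ex vivo CLP 2, against 27.6 to 30.6 in the other ex vivo CLP libraries. The scaled value of H3f3b was 642 in the library labelled cCLP 1, against 492 to 503 in the other cCLP libraries. The linker class held 0.0178% of the library sum in cCLP 1, against 0.0374 to 0.0413% in the other cCLP libraries. All 3 values belong to the pair of libraries that lay with the other label over all genes. The mean of ex vivo CLP 1, 3 and 4 was set at 0 and that of cCLP 2, 3 and 4 at 1. On this scale cCLP 1 lay at 0.208 for H3f3b and -0.271 for Hist1h1c, and ex vivo CLP 2 at 1.21 and 0.99. Over all genes called over the 6 libraries, cCLP 1 ran from -0.271 to 0.24 and ex vivo CLP 2 from 0.592 to 1.21. The value of 0.592 was that of H2afz, where ex vivo CLP 2 lay between the groups.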

How the results depend on the processing

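Over 8 libraries, no histone gene was called under any alternative that kept both doubtful libraries or left out 1 library, and leaving out both gave the 3 higher and 3 lower genes. Over 6 libraries, the higher count stayed at 3, with the same genes, under every alternative other than the replicate block. The lower count was 3, with the same genes, under the other scalings and pseudocounts, a filter of 5, no trend and protein-coding genes only. With no filter, which tests low genes, it was 8 of 60 members, beside 2767 of all 13755 genes. It was 2 to 8 when each library was left out in turn. Without ex vivo CLP 1 it was 8 of 20 members, beside 1736 of all 6878 genes, with H2afv, Hist1h1a, Hist1h2af, Hist1h2bb and Hist1h2bj added. Hist1h2bb lay under the filter of 10 in cCLP 2, 3 and 4 (1.92 to 5.94), so its direction was fixed. The count was 2, of 18 or 20 members, where H2afz was lost, beside 1193 to 1359 of 6724 to 6828 genes. The ratios of the class sums moved by less than the spread over all 8 libraries, which includes the 2 doubtful ones. Being that wide, this limit cannot show that the sums are stable. For linker shares the ratio of cCLP to ex vivo CLP was 1.275 over 8 libraries and 1.73 over 6. The cause of these changes was not tested.

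The labels do not say that a replicate number marks a shared animal or day, and the data do not settle it. Deviations from the group means correlated at 0.595, 0.843, -0.575 and -0.86 for numbers 1 to 4 over 8 libraries, where the 2 libraries that lie with the other label shift both means. Over 6 libraries only numbers 3 and 4 occur in both groups, at 0.175 and -0.477, and a block leaves 1 residual degree of freedom. With a replicate block, 4 of 18 tested members were higher (Hist1h2bg added) and 5 lower (Hist1h1a and Hist1h2af added) over 6 libraries. Beside them, 1229 of all 6573 genes were higher and 1271 lower. Over 8 libraries the block gave 0. Under the block over 6 libraries H2afj (-0.079) and Hist1h2bj (-0.32) reversed.

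Log2 fold changes that changed sign all belonged to genes not called in the comparison as reported. Over 8 libraries, scaling by library sum gave 0.0021 for H2afy and 0.033 for Hist3h2a, a pseudocount of 5 gave -0.025 for Hist1h2bj and upper quartile scaling gave 0.021 for Hist3h2a. Leaving out 1 library at a time gave ranges across 0 for H2afj (-0.017 to 0.33, turned without ex vivo CLP 1), H3f3a (-0.19 to 0.0061, turned without ex vivo CLP 2), Hist1h2af (-0.38 to 0.11, turned without ex vivo CLP 3 or ex vivo CLP 4 or cCLP 2), Hist1h2bc (-0.41 to 0.059, turned without ex vivo CLP 3), Hist1h2bg (-0.14 to 0.61, turned without ex vivo CLP 1 or cCLP 4), Hist1h2bj (-0.57 to 0.37, turned without ex vivo CLP 1 or cCLP 3 or cCLP 4), Hist1h4d (-0.089 to 0.46, turned without ex vivo CLP 1), Hist1h4i (-0.16 to 0.57, turned without ex vivo CLP 1) and Hist3h2a (-0.10 to 0.099, turned without ex vivo CLP 2 or cCLP 1 or cCLP 2). Over 6 libraries, scaling by library sum gave 0.039 for Hist1h2bc, a pseudocount of 0.5 gave 0.00012 for Hist1h2bc and upper quartile scaling gave 0.054 for Hist1h2bc. Leaving out 1 library at a time gave ranges across 0 for H2afj (-0.18 to 0.35, turned without ex vivo CLP 1 or cCLP 3), H3f3a (-0.0037 to 0.19, turned without cCLP 4), Hist1h2bc (-0.37 to 0.33, turned without ex vivo CLP 3 or ex vivo CLP 4 or cCLP 2), Hist1h2bj (-0.45 to 0.97, turned without ex vivo CLP 1) and Hist1h4d (-0.064 to 0.76, turned without ex vivo CLP 1). Low values, sequence shared among histone genes and an unknown depth limit all of these.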

Other observations

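The core genes can also be summed without those that share most of their sequence, a choice made after seeing the data. The 25 core genes with at least 50% of windows found in no other gene summed to scaled values of 144.4, 172.7, 222.9 and 239.4 in cCLP 1 to 4, against 93.2, 244.4, 247.2 and 199.8 in ex vivo CLP 1 to 4. Ex vivo CLP 1 was the lowest library here as well, but ex vivo CLP 4 lay among cCLP 2, 3 and 4. The 6-library means were 211.6 ± 34.8 in cCLP and 180.1 ± 78.9 in ex vivo CLP (SD, n = 3 each). Without a filter on low values, 8 of 60 members were called lower over the 6 libraries, beside 2767 of all 13755 genes. Those added were H1fx, H2afy2, Hist1h1b, Hist1h2ao and Hist1h2bl. All of these had low deposited values, at most 12, and H1fx and H2afy2 were listed at 0 in cCLP 2, 3 and 4.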
